A study of Rattus norvegicus with 2 samples.

Results

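The genes described here are 7 enzymes of glycolysis (Ldha, Eno1, Pgk1, Aldoa, Gapdh, Pkm and Tpi1), the glucose transporter Slc2a1 and the secreted peptides Adm and Vegfa, across the cell types of rat cartilage. They were chosen by symbol from the gene lists of both libraries, with earlier results of these data known, so their values are a description. Of the 10 symbols, 9 were listed among the 18147 genes found in both libraries. Gapdh was not listed under that symbol and was not analysed here. Tpi1 had 10 UMIs in the CIA library and 11 in the control library over all kept cells (a UMI marks 1 captured RNA molecule), too few for a level in any cell type. The 8 usable genes were thus 5 enzymes (Ldha, ENSRNOG00000013009; Eno1, ENSRNOG00000017895; Pgk1, ENSRNOG00000058249; Aldoa, ENSRNOG00000052802; Pkm, ENSRNOG00000011329), Slc2a1 (ENSRNOG00000007284), Adm (ENSRNOG00000027030) and Vegfa (ENSRNOG00000019598).

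The cells were from cartilage of Lewis rats, a strain prone to experimental arthritis, and their RNA was sequenced cell by cell in 2 libraries. The rats of the CIA library (for collagen-induced arthritis) had received type II collagen with Complete Freund's Adjuvant and were collected on day 14. The control library came from rats with no treatment, called sham in the design text. Age, joint and rat numbers are not given in the sources used. With 1 library per group nothing could be tested: no difference has a replicate check, every value compares these libraries and not the conditions, and the 95% intervals hold counting error alone. The CIA library held 105752977 UMIs in 8622 barcodes and the control library 76927821 UMIs in 5456, of which 8409 and 5349 cells were kept. The libraries shared 52 barcodes.

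Glycolysis splits glucose into pyruvate. Slc2a1 brings glucose into the cell, Aldoa cleaves the phosphorylated sugar, Pgk1 and Pkm each make ATP, Eno1 makes the substrate of Pkm, and Ldha turns pyruvate into lactate. When oxygen is low, the transcription factor HIF-1, whose regulated subunit is Hif1a, binds the short core letters ACGTG or GCGTG near its target genes, and the enzymes, Slc2a1, Adm and Vegfa are all textbook targets. Adm encodes adrenomedullin, a peptide that widens vessels and tightens the endothelial barrier, and Vegfa encodes the main growth factor of blood vessels. Cartilage has no vessels of its own, and chondrocytes are known to live largely on glycolysis. The question put to the data was whether the enzymes moved together across cell types and libraries, and whether they moved apart from Adm and Vegfa.

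The promoter windows of the members, 250 bases before to 50 after the start of transcription in RefSeq (build GRCr8), were searched on both strands for ACGTG and GCGTG, 5 letters each. Of the 10 members 9 had an entry, and Pgk1 is named only. The Ldha window held 6 matches, the Slc2a1 window 4, the Gapdh window 3, the Eno1 windows up to 2, and Aldoa 1 match in 1 of its 3 windows. No match lay in the windows of Pkm, Tpi1, Adm or either window of Vegfa. For comparison, 44.6% of 27456 genes had at least 1 match and 21.1% had 2 or more in a window of this length. A match is a description of letters and not a binding site, and a window without one says nothing of sites farther away. The windows with most matches among the usable members and those of both peptides are printed 5′ to 3′ in the direction of transcription, with the matching letters of either strand in capitals (CACGT and CACGC are the matches read on the other strand). In Ldha, the capitals CACGTG near base −87 hold 2 overlapping matches, 1 on each strand.
Ldha, chr1:106507842-106508141, plus strand: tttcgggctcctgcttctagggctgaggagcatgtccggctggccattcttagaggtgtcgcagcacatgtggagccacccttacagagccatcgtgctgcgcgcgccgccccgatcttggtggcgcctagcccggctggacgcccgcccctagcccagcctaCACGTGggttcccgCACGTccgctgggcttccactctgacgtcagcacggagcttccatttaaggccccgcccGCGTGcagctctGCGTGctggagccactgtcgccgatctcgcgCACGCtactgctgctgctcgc
Slc2a1, chr5:138002272-138002571, plus strand: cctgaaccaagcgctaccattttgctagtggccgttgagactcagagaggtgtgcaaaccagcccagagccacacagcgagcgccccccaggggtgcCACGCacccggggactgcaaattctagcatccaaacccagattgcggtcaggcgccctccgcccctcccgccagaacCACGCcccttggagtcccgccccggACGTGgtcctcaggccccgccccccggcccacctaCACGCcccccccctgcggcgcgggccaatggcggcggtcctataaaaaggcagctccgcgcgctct
Eno1, chr5:166003111-166003410, plus strand: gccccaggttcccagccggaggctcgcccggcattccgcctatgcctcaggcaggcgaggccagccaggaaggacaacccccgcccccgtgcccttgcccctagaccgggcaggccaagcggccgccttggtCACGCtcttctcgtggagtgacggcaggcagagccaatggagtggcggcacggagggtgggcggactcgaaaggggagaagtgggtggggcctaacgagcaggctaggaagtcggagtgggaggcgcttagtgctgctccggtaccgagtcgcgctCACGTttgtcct
Adm, chr1:174179950-174180249, plus strand: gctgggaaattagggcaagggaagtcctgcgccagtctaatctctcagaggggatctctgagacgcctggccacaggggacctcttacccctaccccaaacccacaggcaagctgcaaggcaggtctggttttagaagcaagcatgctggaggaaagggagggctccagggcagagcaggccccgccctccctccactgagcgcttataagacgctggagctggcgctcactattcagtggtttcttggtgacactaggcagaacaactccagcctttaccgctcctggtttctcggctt
Vegfa, chr9:22452604-22452903, plus strand: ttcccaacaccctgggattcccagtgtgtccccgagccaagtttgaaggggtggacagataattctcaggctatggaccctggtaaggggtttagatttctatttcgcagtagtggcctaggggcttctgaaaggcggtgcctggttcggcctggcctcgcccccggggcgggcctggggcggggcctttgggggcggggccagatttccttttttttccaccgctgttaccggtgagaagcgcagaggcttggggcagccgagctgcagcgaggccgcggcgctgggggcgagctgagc

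Cells were assigned to types by marker genes. The CIA library held 2379 C1q-low macrophages or monocytes (called C1q-low macrophages from here on), 850 C1q-high macrophages (with at least 2 of C1qa, C1qb and C1qc on, 3 complement genes that mark many resident macrophages), 2830 fibroblasts, 1328 Prg4-high stromal cells (Prg4 encodes the lubricant of the joint surface), 521 endothelial cells and 35 chondrocytes. The control library held 869, 339, 2212, 445, 630 and 309 cells of these types, in the same order. Most cells were therefore not chondrocytes, although the tissue was labelled cartilage. The C1q limit divided a range and not separate types: 153 CIA and 68 control macrophages had 2 of the 3 genes on, and 180 and 56 had 1. The 35 CIA cells in the chondrocyte gate had a median of 9900 CPM of chondrocyte markers and 46288 CPM of fibroblast markers, against 30428 and 4506 CPM in the control chondrocytes (CPM, counts per 1000000 UMIs of the shared genes). Free RNA was present: macrophages and endothelial cells carried between 876 and 1032 CPM of the fibroblast collagen Col3a1, against 20158 to 29176 CPM in fibroblasts and Prg4-high cells. The enzymes have many processed copies in the rat genome: RefSeq names 31 copies of Ldha, 34 of Eno1, 9 of Pgk1, 9 of Aldoa and 20 of Pkm, and none of Slc2a1, Adm or Vegfa. Only 3 of these copies could be found in the files, none above 1.34 CPM, so how the counting split reads between an enzyme and its copies is uncertain.

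**Figure D1:**
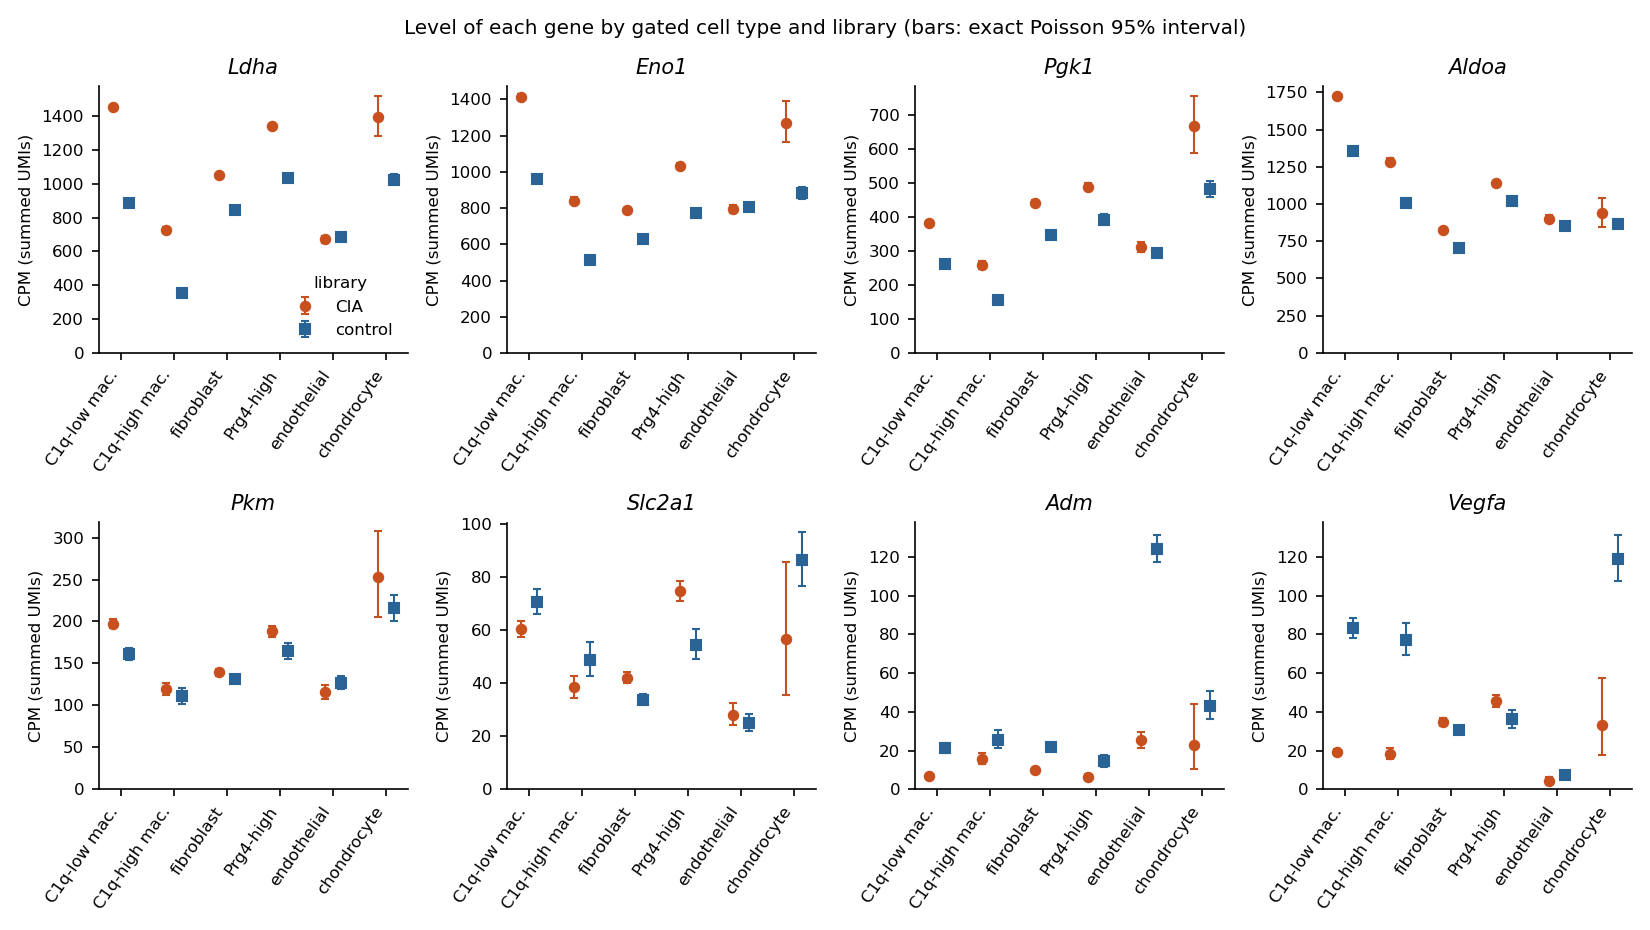
Level of the 8 usable genes in 6 gated cell types, CIA (circles) left of control (squares), as CPM of summed UMIs with exact Poisson 95% intervals. The 5 enzymes lay above control in the CIA macrophages, fibroblasts and Prg4-high cells, while Adm was highest in control endothelium (124 CPM) and Vegfa in control chondrocytes (119 CPM).

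Each enzyme was present in all 6 types, and its level differed between types by less than that of the peptides. Ldha, which makes lactate, had 1451 CPM in C1q-low macrophages, 1396 in chondrocytes, 1339 in Prg4-high cells, 1049 in fibroblasts, 727 in C1q-high macrophages and 672 in endothelium of the CIA library. In the control library its order was Prg4-high cells (1034 CPM), chondrocytes (1025), C1q-low macrophages (887), fibroblasts (848), endothelium (685) and C1q-high macrophages (353). The intervals of Prg4-high cells and chondrocytes overlapped in the control library, and in the CIA library that of chondrocytes overlapped with those of its neighbours.

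Eno1, the enolase, was highest in C1q-low macrophages, with 1413 CPM in CIA and 963 CPM in control cells, and lowest in CIA fibroblasts (790 CPM) and control C1q-high macrophages (514 CPM). Pgk1, the phosphoglycerate kinase, was highest in chondrocytes, with 670 CPM in CIA and 484 CPM in control cells, and lowest in C1q-high macrophages, with 259 and 156 CPM. Aldoa, the aldolase, was highest in C1q-low macrophages, with 1724 CPM in CIA and 1356 CPM in control cells, and lowest in fibroblasts, with 825 and 703 CPM. Pkm, the pyruvate kinase, was highest in chondrocytes, with 252 CPM in CIA and 216 CPM in control cells, although the CIA interval (205 to 308 CPM) reached close to the 197 CPM of CIA C1q-low macrophages. Pgk1 and Pkm thus peaked in chondrocytes, and Eno1 and Aldoa in macrophages. Osteoclasts, the bone-resorbing cells, were few (81 CIA and 20 control cells) but held the most enzyme RNA of the types named here, with 7498 CPM for the 5 enzymes summed in CIA and 5349 CPM in control cells. Erythroid cells held the least, with 289 and 211 CPM (14 and 15 cells).

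Slc2a1, the glucose transporter, had 74.7 CPM in CIA and 54.5 CPM in control Prg4-high cells, 60.3 and 70.7 CPM in C1q-low macrophages, and 56.7 CPM (interval 35.5 to 85.8) and 86.3 CPM in chondrocytes. It was lowest in endothelium, with 28.2 CPM in CIA and 24.95 CPM in control cells. Its top place was held by Prg4-high cells in the CIA library and by chondrocytes in the control library.

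Adm had a different order. In the control library it was highest in endothelium, at 124 CPM (interval 117 to 131), then in chondrocytes at 43.2 CPM, and between 14.5 and 25.6 CPM in macrophages, fibroblasts and Prg4-high cells. In the CIA library endothelium held 25.3 CPM (21.5 to 29.6), C1q-high macrophages 15.9 CPM, fibroblasts 9.79 CPM, C1q-low macrophages 6.79 CPM and Prg4-high cells 6.51 CPM. The 9 Adm UMIs of the CIA chondrocytes gave 23.2 CPM (10.6 to 44.0). Control B-lineage cells, of which 36 were found, had 10.2 CPM of Adm (2.78 to 26.1), so the lowest of these levels were not above that of a type not known for Adm. That interval also covered the 14.5 to 25.6 CPM of control macrophages, fibroblasts and Prg4-high cells. The CIA library held 0 B-lineage cells for such a comparison. After thinning each cell to 4000 UMIs, Adm was seen in 5.95% of CIA and 19.8% of control endothelial cells, and in 0 of the 36 B-lineage cells.

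Of the 6 types, Vegfa was highest in control chondrocytes, at 119 CPM (interval 108 to 131), followed by 83.0 CPM in control C1q-low and 77.2 CPM in control C1q-high macrophages. The CIA macrophages held 19.3 CPM (C1q-low) and 18.2 CPM (C1q-high), and the 13 Vegfa UMIs of CIA chondrocytes gave 33.5 CPM (17.8 to 57.3). Fibroblasts held 34.6 CPM in CIA and 30.9 CPM in control cells, and Prg4-high cells 45.5 and 36.2 CPM. In the CIA library the order of the stromal cells and macrophages was thus the reverse of that in the control library. Endothelium, which carries the receptors for Vegfa, held almost none, at 4.24 and 7.65 CPM. In thinned cells Vegfa was seen in 6.85% of CIA and 21.2% of control C1q-low macrophages, and in 2.30% and 3.02% of endothelial cells, the type taken as background. Before thinning, the median depth was 9950 and 12144 UMIs per C1q-low macrophage and 8819 and 11420 per endothelial cell.

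**Figure D2:**
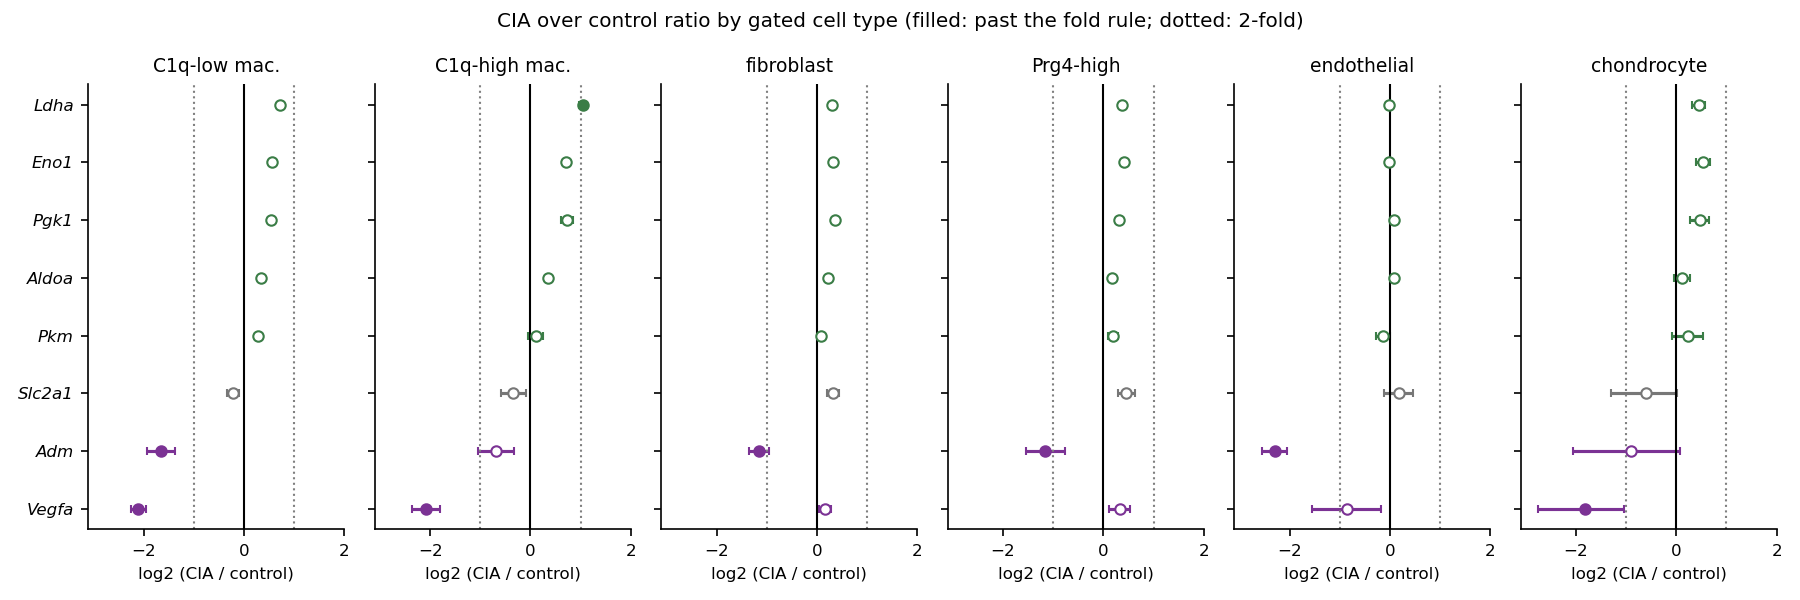
CIA over control ratio of each gene on the log2 scale in 6 gated cell types, with exact conditional 95% intervals (green, enzymes; grey, Slc2a1; purple, Adm and Vegfa; filled, past the fold rule). The enzymes lie right of 0 in all types but endothelium, (with TMM scaling, Aldoa and Pkm lie left of 0 in chondrocytes), while Adm lies left of 0 throughout and Vegfa left of 0 in macrophages, endothelium and chondrocytes only.

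In macrophages the enzymes were higher in the CIA library and both peptides lower. A gene counted as higher or lower where the ratio was at least 2-fold, its interval lay wholly beyond 1.5-fold and it had at least 100 UMIs over both sums. By that rule 4.45% of 9898 measured genes differed in the macrophages of both C1q classes, 0.394% as higher and 4.05% as lower. None of the 5 enzymes passed it, but all 5 had ratios whose interval lay above 1, as did 34.5% of all measured genes. Ldha led with a CIA over control ratio of 1.72 (1.68 to 1.75), followed by Eno1 at 1.51 (1.49 to 1.54), Pgk1 at 1.503 (1.45 to 1.56), Aldoa at 1.28 (1.26 to 1.30) and Pkm at 1.20 (1.15 to 1.26). The median of the 5 was 0.59 on the log2 scale, against 0.09 over all measured genes. Taken over single cells, the median Ldha level of C1q-low macrophages was 1032 CPM in CIA and 599 CPM in control cells.

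Adm and Vegfa passed the rule in the other direction in macrophages. Adm had 8.99 CPM in CIA and 22.5 CPM in control macrophages, 2.50-fold lower (2.15 to 2.91), and Vegfa 19.0 and 81.5 CPM, 4.28-fold lower (3.90 to 4.69). Slc2a1 sat between these groups, with 55.1 CPM in CIA and 64.7 CPM in control macrophages, a ratio of 0.851 (0.790 to 0.916).

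Both C1q classes had this pattern, with differences in size. In C1q-high macrophages, where 4.2% of genes passed the rule in either direction, 0.59% as higher and 3.61% as lower, Ldha passed it as higher, with 727 CPM in CIA and 353 CPM in control cells, a ratio of 2.06 (1.95 to 2.18). With TMM scaling, Ldha came to 0.96 on the log2 scale and did not pass. Pkm had 119 and 111 CPM there, a ratio of 1.07 (0.965 to 1.20). Vegfa was 4.24-fold lower (3.50 to 5.14), and Adm did not pass, with 15.9 CPM in CIA and 25.6 CPM in control cells. In C1q-low macrophages, where 4.22% of genes passed (0.349% as higher, 3.88% as lower), no enzyme did. Their ratios ran from 1.22 (Pkm) to 1.64 (Ldha), Adm was 3.15-fold lower (2.60 to 3.81) and Vegfa 4.30-fold lower (3.87 to 4.79).

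The macrophages of the libraries lay mostly in different clusters when all cells were clustered without the member genes. Of the C1q-low cells, 74.3% in CIA and 19.2% in control lay in cluster 1, led by C1qb, C1qc, C1qa, Spp1 and Pla2g2d. The same cluster held 91.9% of CIA and 33.0% of control C1q-high cells, so most CIA cells below the C1q limit clustered with those above it. Conversely 12.2% of CIA and 64.8% of control C1q-low cells lay in cluster 9, led by Gdf15, Rasgef1b, Ccrl2, Cxcl2 and Cd83. Cluster 5, led by genes of dividing cells such as Mki67 and Rrm2, held 10.6% and 7.59%, and cluster 10, led by Ctsg, Elane and Mpo of myeloid granules, 2.40% and 7.59%. The leading genes of clusters 1 and 10, taken over all cells of a cluster against all other cells, went against the name C1q-low macrophage. Cluster 1 also held C1q-high cells, and 53.8% of cluster 10 were cells that passed no gate. The leading genes therefore do not show what the C1q-low cells of these clusters expressed. The values by cluster number stand beside those of the class.

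Within those clusters the 3 kinds of gene parted. Vegfa differed more between clusters 1 and 9 than between the libraries within them. In cluster 9 it had 103 CPM in CIA and 102 CPM in control cells, a ratio of 1.01 (0.866 to 1.17), and in cluster 1 it had 11.9 and 14.6 CPM, a ratio of 0.814 (0.567 to 1.20). It was lower in CIA cells only in the small clusters, with 7.70 and 33.8 CPM in cluster 5 and 45.1 and 199 CPM in cluster 10. Adm was lower in CIA cells of each large cluster, with 7.61 and 24.9 CPM in cluster 1 (ratio 0.306, 0.225 to 0.421) and 7.82 and 19.9 CPM in cluster 9 (0.392, 0.223 to 0.649). In cluster 5 it had 6 UMIs in CIA and 51 in control cells, a ratio of 0.0500 (0.0175 to 0.117), and in cluster 10 it had 6 and 2 UMIs. The enzymes summed were higher in CIA cells of both, with a ratio of 1.19 (1.17 to 1.22) in cluster 1 and 1.55 (1.52 to 1.59) in cluster 9, where Ldha alone had 1646 and 733 CPM, a ratio of 2.25 (2.15 to 2.34). In dividing cells of cluster 5 that ratio was 1.05 (1.03 to 1.08).

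The C1q-high cells of cluster 1 (781 CIA and 112 control cells) gave the same picture. Vegfa had 11.7 and 11.2 CPM there, a ratio of 1.04 (0.591 to 1.98), while Ldha had 711 and 385 CPM, a ratio of 1.84 (1.68 to 2.03). Slc2a1 also turned within the large clusters: below 1 over all C1q-low cells, it had ratios of 1.41 (1.14 to 1.75) in cluster 1 and 1.24 (1.06 to 1.45) in cluster 9. Its ratios were 0.842 (0.661 to 1.08) in cluster 5 and 0.643 (0.363 to 1.11) in cluster 10.

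**Figure D3:**
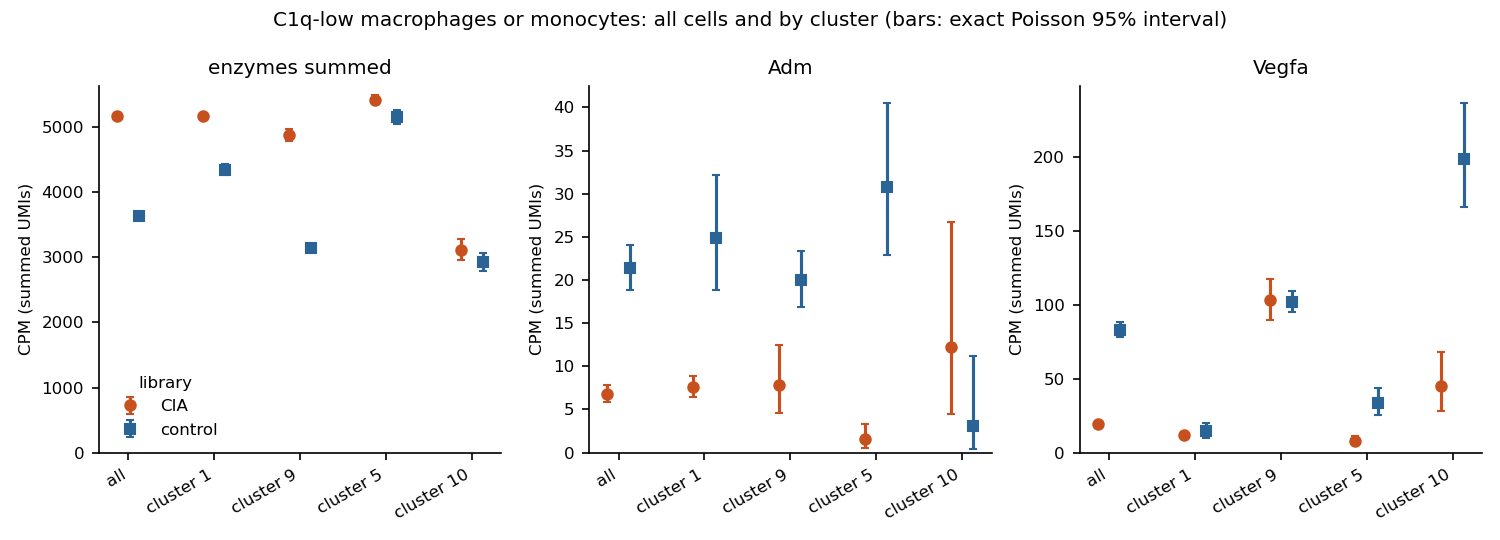
The 5 enzymes summed, Adm and Vegfa in C1q-low macrophages or monocytes, over all cells and in 4 clusters, CIA (circles) left of control (squares), as CPM with exact Poisson 95% intervals. Vegfa differs over all cells but not in clusters 1 and 9, which hold most cells of the CIA and control library; in the same clusters Adm is lower and the enzymes are higher in CIA cells.

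Fibroblasts and Prg4-high stromal cells had the enzymes, Slc2a1 and Vegfa slightly higher and Adm lower in the CIA library. In fibroblasts the CIA over control ratios were 1.24 for Ldha, 1.25 for Eno1, 1.28 for Pgk1, 1.17 for Aldoa and 1.06 for Pkm, with all 5 intervals above 1, as for 26.1% of genes. Slc2a1 had 42.1 CPM in CIA and 33.7 CPM in control fibroblasts, a ratio of 1.25 (1.15 to 1.35). Of the usable genes only Adm passed the fold rule, which 1.48% of 10958 measured genes did (0.164% as higher, 1.31% as lower). It had 9.79 CPM in CIA and 21.8 CPM in control fibroblasts, 2.22-fold lower (1.95 to 2.54). Vegfa had a ratio of 1.12 (1.03 to 1.22).

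The fibroblasts of clusters 0, 3 and 8 differed among themselves. The enzymes summed had ratios of 1.09, 1.30 and 1.35 in these clusters, and Adm ratios of 0.735, 0.181 and 0.292, so the cluster with the largest Adm level in CIA cells (cluster 0, 16.5 CPM) was the one with the smallest difference in both. Vegfa had ratios of 1.06 (0.921 to 1.22), 1.12 (0.984 to 1.28) and 1.69 (1.34 to 2.13).

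In Prg4-high cells, where 2.94% of genes passed the rule (1.19% as higher, 1.75% as lower), the enzyme ratios ran from 1.12 (Aldoa) to 1.33 (Eno1), with all 5 intervals above 1, as for 17.6% of genes. Slc2a1 had a ratio of 1.37 (1.22 to 1.54) and Vegfa of 1.26 (1.09 to 1.45). Adm had 6.51 CPM in CIA and 14.5 CPM in control cells, 2.23-fold lower (1.70 to 2.93). By cluster, Adm had ratios of 0.891 (0.595 to 1.36) in cluster 0, which held 77 of the 128 CIA UMIs, 0.432 (0.227 to 0.877) in cluster 2 and 0.153 (0.0168 to 0.664, 2 and 14 UMIs) in cluster 3. The enzyme difference of Prg4-high cells was not seen in each cluster: the summed ratio was 1.26 in cluster 0, 0.972 (0.947 to 0.998) in cluster 2 and 1.05 in cluster 3. Cluster 2 held 46.5% of the CIA and 16.4% of the control Prg4-high cells. Its summed enzyme level, 4758 CPM in CIA and 4895 CPM in control cells, was higher than in cluster 0, with 2829 and 2249 CPM. Cluster 13 held 20.9% of the control Prg4-high cells but only 25 CIA cells of any type. That part of the control class thus had almost no CIA counterpart in the ratios over all Prg4-high cells. Cluster 8 held 172 CIA and 24 control Prg4-high cells, and no ratio was taken in either cluster. With cell types taken from clusters, the enzymes summed came to −0.03, Vegfa to −0.54 and Adm to −1.15 on the log2 scale in Prg4-high cells, and Adm no longer passed the rule.

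Of the 6 types, Adm lay farthest below the enzyme median in endothelium (−2.27 on the log2 scale), with C1q-low macrophages close behind (−2.19). The 5 enzymes summed had 2794 CPM in CIA and 2768 CPM in control endothelium, a ratio of 1.01 (0.990 to 1.03), and each enzyme had a ratio between 0.910 (Pkm) and 1.06 (Pgk1 and Aldoa). Their median was −0.02 on the log2 scale, against 0.10 over all measured genes. Adm was 4.91-fold lower (4.15 to 5.84), in a type where 1.75% of 8515 genes passed the rule, 0.235% as higher and 1.51% as lower. In the CIA library 1 cell held 25.8% of the 155 Adm UMIs of endothelium, and without the cell with most Adm UMIs in each library the difference came to −2.67 on the log2 scale, against −2.30 with them. Vegfa had 26 UMIs in CIA and 72 in control endothelium, below the count required by the rule.

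Control chondrocytes held most Vegfa of the 6 types, and the few CIA cells of that gate held less. Vegfa had 33.5 CPM in CIA and 119 CPM in control chondrocytes, 3.55-fold lower (2.05 to 6.73), past the rule that 8.88% of 3658 genes passed (3.55% as higher, 5.33% as lower). Adm had 23.2 and 43.2 CPM, a ratio of 0.537 whose interval (0.241 to 1.05) included 1. Ldha, Eno1 and Pgk1 had ratios of 1.36, 1.44 and 1.38 with intervals above 1, as did 29.4% of genes. Aldoa, at 1.08 (0.969 to 1.21), and Pkm, at 1.17 (0.937 to 1.45), did not. The median ratio over all chondrocyte genes was 0.24 on the log2 scale, and TMM scaling moved every ratio in this type by −0.35, which took Aldoa to −0.23 and Pkm to −0.12. The fibroblast markers of the CIA cells given above moved with these values, and their part in the result was not tested.

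Beside the lower peptides, a list of 8 immediate-early genes, added after seeing the data, was lower in the CIA library in every type. Its summed level was 4018 CPM in CIA and 9136 CPM in control macrophages, 1375 and 2877 CPM in fibroblasts, 1333 and 2898 CPM in Prg4-high cells, 1821 and 5829 CPM in endothelium, and 2599 and 13569 CPM in chondrocytes. By the fold rule 4.05%, 1.31%, 1.75%, 1.51% and 5.33% of all measured genes were lower in these types. Of the 8 listed genes 5, 4, 4, 7 and 8 were lower and 0 higher. Such genes are known to respond quickly to handling and dissociation of tissue. Their part in the results for Adm and Vegfa was not tested.

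Other genes of glycolysis went both ways in macrophages. Of 17 listed, 11 were measured there, 7 with an interval above 1 and 3 below 1 (34.5% and 18.7% of all genes), and the median was 0.56 on the log2 scale. Pgam1, the mutase between Pgk1 and Eno1, had 545 CPM in CIA and 315 CPM in control macrophages, a ratio of 1.73 (1.68 to 1.78). Slc16a3, which exports lactate, had 69.9 and 37.0 CPM, a ratio of 1.89 (1.73 to 2.06), and Pfkl, a phosphofructokinase subunit, 69.2 and 41.7 CPM, a ratio of 1.66 (1.53 to 1.81). Pfkfb3, which makes the activator of phosphofructokinase, was the 1 gene past the rule, and it was lower, with 13.5 and 28.6 CPM, a ratio of 0.472 (0.416 to 0.537). Of all macrophage genes 4.05% passed as lower. Slc16a1, a transporter of lactate and pyruvate, had a ratio of 0.596 (0.508 to 0.700).

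In fibroblasts 14 of the 17 were measured, with a median of 0.19. Hk3, a hexokinase, passed as higher with 3.31 CPM in CIA and 1.44 CPM in control cells, and 0 passed as lower (0.164% and 1.31% of all genes). Slc16a3 had 47.9 and 29.0 CPM, a ratio of 1.65 (1.52 to 1.79), and Ldhb, the lactate dehydrogenase subunit of oxidative tissues, 8.08 and 12.8 CPM, a ratio of 0.632 (0.540 to 0.739). In Prg4-high cells 13 were measured, with a median of 0.21, and Hk3 again was the 1 gene past the rule, with 5.19 and 1.82 CPM (1.19% of all genes passed as higher). In macrophages Hk3 had 85.2 and 57.6 CPM. The summed macrophage markers moved with it, at 1667 CPM in CIA and 963 CPM in control fibroblasts and 1725 and 983 CPM in Prg4-high cells, and their part in the Hk3 result was not tested. In endothelium 11 were measured and 0 passed in either direction (1.75% of all genes did), with a median of 0.18. Slc16a3 there had 11.7 CPM in CIA and 6.26 CPM in control cells, and Ldhb 60.5 and 41.9 CPM. In chondrocytes 9 were measured, with a median of 0.13, and Aldoc, another aldolase, passed as lower with 7.73 CPM (3 UMIs) in CIA and 45.5 CPM in control cells, a ratio of 0.170 (0.0346 to 0.505). Of all chondrocyte genes 5.33% passed as lower.

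Of 18 other genes that respond to low oxygen, 16 were measured in macrophages, with a median of −0.05. An interval above 1 was held by 6 and one below 1 by 7 (34.5% and 18.7% of all genes). Bnip3, a mitophagy receptor, passed as higher with 38.0 CPM in CIA and 18.6 CPM in control cells, a ratio of 2.05 (1.81 to 2.32). Hilpda, a lipid droplet protein, passed as lower with 1.75 and 6.27 CPM, a ratio of 0.280 (0.202 to 0.385). Of all macrophage genes 0.394% passed as higher and 4.05% as lower. Angptl4 and Ddit4 had ratios of 0.555 and 0.572. The genes of the list thus lay on both sides of 1, and those above 1 were a share near that of all genes.

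In endothelium 14 were measured, 0 passed as higher and 2 as lower (0.235% and 1.51% of all genes). These were Angptl4, a secreted inhibitor of lipoprotein lipase, with 19.6 CPM in CIA and 60.6 CPM in control cells, and Ddit4, an inhibitor of mTOR signalling, with 111 and 249 CPM. In fibroblasts all 18 and in Prg4-high cells 15 were measured and 0 passed in either direction (1.48% and 2.94% of all genes did), with medians of 0.09 and 0.12. The largest ratios were those of Car9, a carbonic anhydrase, in fibroblasts, 1.501 (1.20 to 1.88), and of Ero1a, an oxidase of the endoplasmic reticulum, in Prg4-high cells, 1.53 (1.39 to 1.70). In chondrocytes 14 were measured, 1 with an interval above 1 (29.4% of all genes had one) and 6 below 1, with a median of −0.33. There 2 passed as lower and 0 as higher (5.33% and 3.55% of all genes). Hmox1, a heme-degrading enzyme, was among the lower, with 41.2 CPM in CIA and 171 CPM in control cells.

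Hif1a itself was slightly higher in CIA cells of each type but macrophages. It had 88.9 CPM in CIA and 94.9 CPM in control macrophages, 506 and 441 CPM in fibroblasts, 472 and 401 CPM in Prg4-high cells, 346 and 300 CPM in endothelium, and 569 and 437 CPM in chondrocytes, with ratios between 0.937 and 1.30. Epas1, which encodes HIF-2α, was highest in endothelium, with 482 and 438 CPM. Of the 5 oxygen-sensing genes (Hif1a, Epas1, Arnt, Vhl and Hif1an) none that was measured passed the rule in these types. Measured were 4 in macrophages, 5 each in fibroblasts and Prg4-high cells, 3 in endothelium and 2 in chondrocytes. In the same order 4.45%, 1.48%, 2.94%, 1.75% and 8.88% of all measured genes passed. All 4 measured in macrophages had an interval below 1, as did 18.7% of all genes there. Vhl, which marks HIF for degradation, had 11.5 CPM in CIA and 20.2 CPM in control macrophages, a ratio of 0.569 (0.492 to 0.658). HIF is regulated mainly at the protein level, which RNA counts do not measure.

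Of the 9 receptor genes of both peptides, 7 had their highest level in endothelium in each library (Calcrl, Ramp2, Ramp3, Kdr, Flt1, Flt4 and Nrp1). Kdr was itself a marker of the endothelial gate, so its peak and level there were partly set by the gate. Ramp1 was highest in C1q-high macrophages, with 108 CPM in CIA and 53.3 CPM in control cells, and Nrp2 in Prg4-high cells, with 212 and 168 CPM. Kdr, the main signalling receptor of Vegfa, had 395 CPM in CIA and 278 CPM in control endothelium, a ratio of 1.42 (1.34 to 1.501), and Flt1, another receptor, 389 and 287 CPM, a ratio of 1.36 (1.28 to 1.43). Calcrl and Ramp2, which together form the adrenomedullin receptor, had 348 and 354 CPM and 1415 and 1250 CPM in endothelium. In Prg4-high cells they had 132 and 97.1 CPM and 178 and 266 CPM. Of the 9 receptor genes 8 were measured in endothelium, 7 with an interval above 1 (27.3% of all genes had one) and 0 past the rule (1.75% of all genes passed). Of the 6 types endothelium thus held most Calcrl and Ramp2 RNA in each library, and most Adm in the control library. In the CIA library its Adm interval (21.5 to 29.6 CPM) lay within that of chondrocytes (10.6 to 44.0). There 1 cell held a large share of the endothelial Adm UMIs, as given above. The receptor genes did not share the Adm difference in endothelium. In macrophages Flt1 passed as higher, with 22.2 CPM in CIA and 10.3 CPM in control cells, a ratio of 2.16 (1.83 to 2.56), the 1 receptor gene of 8 measured past the rule (0.394% of all genes passed as higher). In chondrocytes Ramp2 (67.0 and 295 CPM) and Ramp3 (5.15 and 37.8 CPM, a ratio of 0.136 with an interval of 0.0163 to 0.503) passed as lower and Nrp2, a coreceptor of Vegfa, as higher (108 and 46.4 CPM). Only 3 of the 9 were measured there, and 5.33% of all genes passed as lower and 3.55% as higher. The CIA cells of that gate carried the fibroblast markers given above.

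Across cell types the enzymes went together in part. Over the 10 combinations of 5 cell types and library with at least 50 cells, log2 CPM of the 10 pairs of enzymes had a median Pearson r of 0.69, from −0.05 (Pgk1 with Aldoa) to 0.90 (Ldha with Pgk1). Ldha with Pkm had r of 0.87, Ldha with Eno1 0.81 and Ldha with Aldoa 0.35, so Aldoa stood apart from Pgk1 and Ldha. Slc2a1 with the enzymes had a median of 0.45, Adm of −0.49 (−0.62 to −0.45) and Vegfa of 0.00 (−0.16 to 0.30). Adm with Vegfa had r of −0.39, and Slc2a1 with Vegfa 0.76. These points share libraries, depth and free RNA, and each cell type enters from both libraries, so the values describe these 10 points.

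Among 8873 genes, the one whose pattern over these points was most like the mean of the 5 enzymes was Pgam1 (r of 0.965), which works between Pgk1 and Eno1. It was followed by AABR07044711.1, LOC108351137 (0.923, 797 to 1815 CPM), Mrpl20 and Tmem19. Most like Vegfa were Sdc4 (0.968, 16.2 to 545 CPM), which encodes a heparan sulphate proteoglycan of the cell surface, and Lhfpl2, Irs2, Fam46a and Bcl6. Most like Adm were RF00289_2, AY172581.12, the mitochondrial gene Mt-co3 (0.926, 6490 to 9976 CPM), Parp6 and AC094217.1, a set with no other hypoxia-response gene of the lists.

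Across single cells of 1 type the enzymes also went together. In cells thinned to 4000 UMIs, the median r of the 10 enzyme pairs was 0.30 in CIA and 0.21 in control C1q-low macrophages, 0.31 and 0.28 in fibroblasts, 0.26 and 0.31 in Prg4-high cells, and 0.29 in control chondrocytes. In C1q-high macrophages it was 0.29 in CIA and 0.11 in control cells, and in endothelium 0.10 and 0.12. Counting noise lowers such values: after correction for it, a step added after seeing the data, the medians lay between 0.48 (control C1q-high macrophages) and 0.85 (CIA fibroblasts). For CIA C1q-high macrophages, Prg4-high cells and endothelium the correction is void, since it gave values above 1 for 4, 4 and 1 of the 10 pairs. Leaving out cycling cells moved the median of CIA Prg4-high cells from 0.26 to 0.28 and the others by less.

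Adm and Vegfa had lower values, at lower counts. The median r of Adm with the 5 enzymes lay between −0.05 and 0.12 over the 11 combinations of type and library, and that of Vegfa between −0.06 and 0.12. The mean count of Adm in thinned cells was low, for example 0.0301 UMIs in CIA C1q-low macrophages, so a weak r is no finding. Corrected values are given only where the correction was not void. The corrected median of Vegfa with the enzymes was 0.32 in CIA and 0.17 in control fibroblasts, and 0.15 and −0.08 in C1q-low macrophages. In control cells of the other types it was 0.29 (Prg4-high), −0.14 (C1q-high macrophages), 0.04 (endothelium) and 0.21 (chondrocytes). The corrected median of Adm lay between −0.16 and 0.16. The highest uncorrected values of both were in control chondrocytes (0.12 each), where Adm and Vegfa also went with each other (r of 0.22). There Vegfa was seen in 58.3% of 36 cells with an Adm UMI and in 29.7% of 273 cells without one. Over the other 10 combinations r of Adm with Vegfa lay between −0.04 and 0.06.

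**Figure D4:**
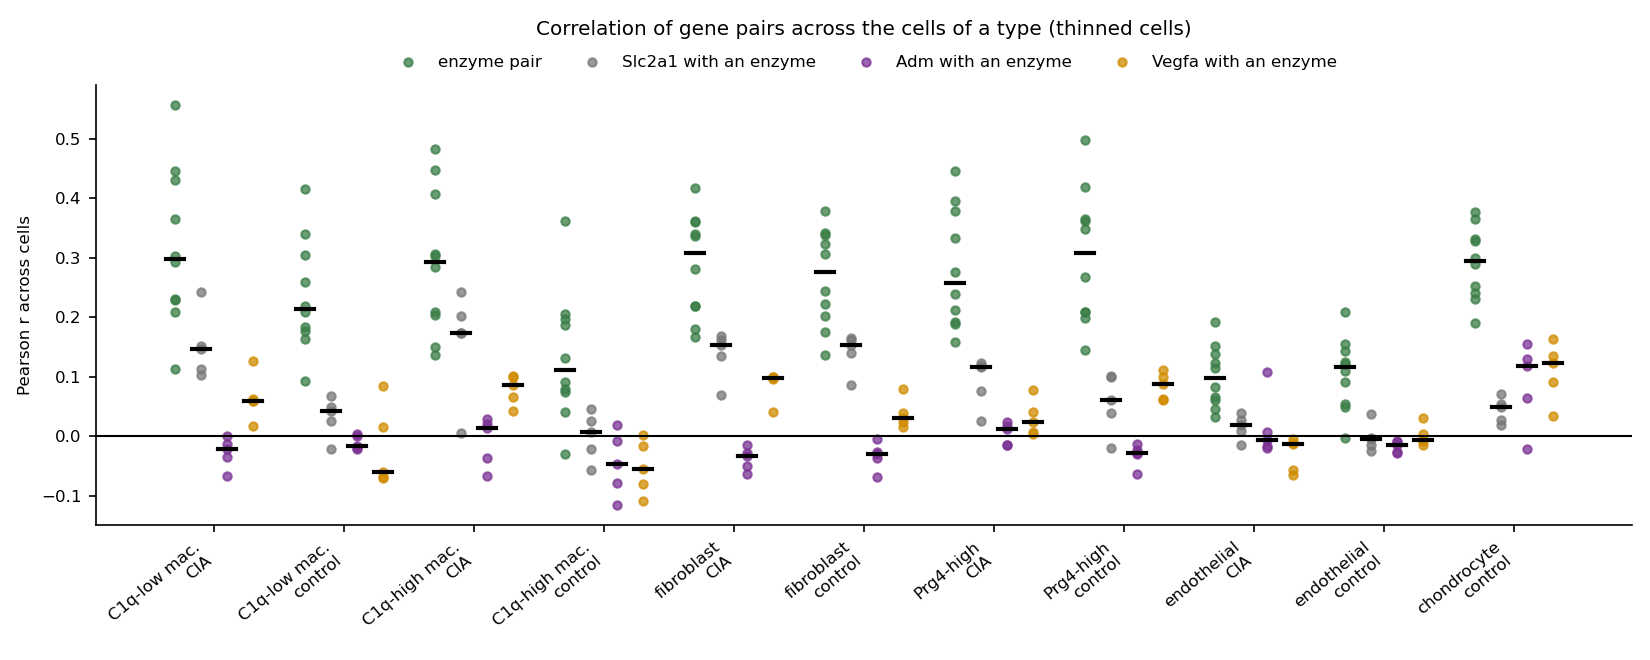
Pearson r across thinned cells for each pair of enzymes (green), and for Slc2a1 (grey), Adm (purple) and Vegfa (orange) with each of the 5 enzymes, by cell type and library; black bars are medians. Enzyme pairs lie highest in each combination, with medians between 0.10 and 0.31, and Adm lies near 0 except in control chondrocytes.

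Split by whether a cell had a UMI of the other gene, the same thinned cells showed which genes marked cells rich in enzyme RNA. Cells with a Slc2a1 UMI held more enzyme UMIs in fibroblasts, by 1.44-fold (1.40 to 1.48) in CIA and 1.61-fold (1.55 to 1.67) in control cells. The Slc2a1 ratios were 1.36 in CIA and 1.08 in control C1q-low macrophages and 1.21 and 1.18 in Prg4-high cells, all with intervals above 1. In C1q-high macrophages they were 1.71 (1.63 to 1.81) in CIA but 0.943 (0.842 to 1.05) in control cells. Intervals also included 1 in endothelium (1.08 in CIA and 0.991 in control cells) and control chondrocytes (1.05). Cells with a Vegfa UMI held 25.6 enzyme UMIs and cells without one 19.1 in CIA C1q-low macrophages, a ratio of 1.34 (1.30 to 1.38), against a ratio of 0.952 (0.909 to 0.997) in control C1q-low macrophages. C1q-high macrophages had the same pattern, with ratios of 1.49 (1.38 to 1.60) in CIA and 0.887 (0.793 to 0.990) in control cells. Vegfa ratios were 1.28 in CIA and 1.16 in control fibroblasts, 1.09 and 1.26 in Prg4-high cells and 1.26 in control chondrocytes, each with an interval above 1. For Adm the ratio was 0.878 in CIA and 0.908 in control C1q-low macrophages and 0.821 and 0.889 in fibroblasts, all with intervals below 1, but 1.26 (1.15 to 1.38) in control chondrocytes. In C1q-high macrophages it was 1.08 (0.984 to 1.18) in CIA and 0.866 (0.7499 to 0.995) in control cells, in Prg4-high cells 1.05 (0.954 to 1.15) and 0.880 (0.771 to 1.002), and in endothelium 1.06 (0.949 to 1.18) and 0.934 (0.877 to 0.994). These intervals count UMIs and not cells, and are too narrow for cells that differ among themselves.

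Cycling cells, marked by genes of cell division, held more of some enzymes. In macrophages the 5 enzymes summed were 1.11-fold higher (1.09 to 1.13) in cycling than in other CIA cells and 1.47-fold (1.43 to 1.505) in control cells, and in fibroblasts 1.41-fold and 1.16-fold. The summed ratios were 1.02 in CIA and 1.09 in control Prg4-high cells. In endothelium they were 0.976 (0.933 to 1.02) and 0.929 (0.893 to 0.967). Pgk1 was higher in cycling cells of both libraries in macrophages (ratios 1.29 and 1.84), fibroblasts (1.63 and 1.46), Prg4-high cells (1.23 and 1.46) and endothelium (1.24 and 1.27). Aldoa had an interval above 1 only in control macrophages: its ratios were 0.922 and 1.08 (1.03 to 1.13) in macrophages and 1.01 and 0.837 in fibroblasts. They were 0.779 and 0.812 in Prg4-high cells and 0.783 and 0.690 in endothelium. Adm was lower in cycling cells, with ratios of 0.145 (0.0469 to 0.343) in CIA and 0.453 (0.256 to 0.746) in control macrophages. Control endothelium was an exception, with 129 CPM in cycling and 123 CPM in other cells. Cycling cells made up 8.83% of CIA and 7.25% of control C1q-low macrophages.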

How the data were processed

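RNA of single cells from rat cartilage had been counted in 2 libraries, 1 for CIA and 1 for control. The authors deposited unnormalised UMI counts, 1 matrix of genes by cells per library, made with the Chromium 3' kit (version 2) per the labels' protocols and the genome build mRatBN 7.2 per the submitters' processing notes. Aligner, counting tool, cell calling and strand: not given in the sources used here. Members and gene lists were chosen with earlier results of these data known.

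Cells under 200 genes or over 20% mitochondrial UMIs were removed (47 CIA and 45 control cells), and doublets called by Scrublet were removed (166 CIA and 62 control cells). All intervals below depend on a median depth of 10541 UMIs per CIA and 11873 per control cell. Cell types came from marker gates: a marker was on at 2 or more UMIs and 200 CPM, and a type needed a set number of markers on (3 of 9 for chondrocytes, 5 of 12 for macrophages, 3 of 8 for endothelium). Fibroblasts needed 10000 CPM of Col1a1, Col3a1, Dcn and Lum summed, and Prg4-high cells 10000 CPM of Prg4 in addition; the limits were set after seeing the data. In the CIA library 189 Prg4-high cells lay within 25% above the Prg4 limit and 262 cells within 25% below it, against 76 and 107 in the control library.

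UMIs were summed per library and type and scaled to their total over the 18147 shared genes (CPM). Levels carry exact Poisson, shares exact binomial (Clopper-Pearson) and ratios exact conditional 95% intervals. All members are named, and of each list the up to 5 measured genes of largest ratio in a type; where fewer are named, the others are within the counts given. The mean pattern of the enzymes uses 5 of the 7, since the other 2 had no usable counts. Clusters came from Leiden clustering without batch correction, with the members left out of the variable genes. Patterns were compared over log2(CPM + 1), with a pseudocount of 1 CPM. Values within clusters, by cycling state and by UMI of another member, the noise-corrected correlation and the immediate-early list were added after seeing the data. Tools were Python 3.11.15, scanpy 1.11.5, anndata 0.12.19, numpy 2.4.6, scipy 1.17.1, pandas 2.3.3, igraph 0.11.9, scikit-learn 1.9.0 and matplotlib 3.10.9, with TMM factors from edgeR 4.0.16 in R 4.3.3. Promoters were taken from RefSeq (GRCr8), another build than that of the files. The values of a gene on the low-oxygen list are not reported here.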

Additional observations from a re-analysis of the deposited data

Results flagged for a closer look

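Vegfa had CIA over control ratios in opposite directions in different cell types, with both intervals clear of 1 and those on the lower side past the fold rule. The log2 ratio of fibroblasts (0.16) exceeded that of C1q-high macrophages (−2.08) by 2.25, that of C1q-low macrophages (−2.10) by 2.27 and that of chondrocytes (−1.83) by 1.99. The log2 ratio of Prg4-high stromal cells (0.33) exceeded those of the same types by 2.41, 2.43 and 2.16. Slc2a1 also had ratios on both sides of 1, at 1.25 in fibroblasts and 1.37 in Prg4-high cells but 0.789 in C1q-high and 0.854 in C1q-low macrophages, none past the fold rule. Pkm, above 1 in C1q-low macrophages, fibroblasts and Prg4-high cells, had 0.910 (0.828 to 0.9995) in endothelium. With 1 library per group these differences were not tested. Within clusters Vegfa had a ratio of 0.814 (cluster 1), 0.228 (cluster 5), 1.01 (cluster 9) and 0.226 (cluster 10) in C1q-low macrophages. Its ratio was 1.86 (1.40 to 2.51, cluster 0), 0.703 (0.553 to 0.903, cluster 2) and 0.867 (0.590 to 1.27, cluster 3) in Prg4-high cells.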

How the results depend on the processing

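No paired analysis was possible because each group had 1 library. No direction past the fold rule was reversed by any alternative. Of 72 ratios, 67 kept their sign and 71 their call with TMM factors. With stricter gates 71 and 71 did. These gates required 1 more marker, or, for fibroblasts and Prg4-high cells, level limits raised 2-fold. With at most 10% mitochondrial UMIs 71 and 72 did, and without the 50 most abundant genes in the total 70 and 72. With doublet calls kept 72 and 72 did, and with cell types from clusters 57 and 62 of 63. C1q-high macrophages had no cluster of their own and were not run there. The enzymes summed in macrophages had a log2 ratio of 0.54, and 0.50 with TMM factors. In fibroblasts it was 0.29, and 0.25 with TMM factors and 0.27 without the 50 most abundant genes. There it was 0.27 with at most 10% mitochondrial UMIs and 0.31 with the stricter gates. Adm in endothelium came to −2.67 without the cell with most Adm UMIs in each library. With the stricter gates Adm did not pass the rule in Prg4-high cells (−1.18). The cause was not tested for these. Where 1000 UMIs were required in place of 100, fewer genes were measured and 196 (not 440) passed in macrophages, 35 (not 162) in fibroblasts and 55 (not 149) in endothelium. Without thinning, the median r of the enzyme pairs was higher in each combination, for example 0.43 in place of 0.30 in CIA C1q-low macrophages. Depth limits Adm and Vegfa most, with 9 and 13 UMIs in CIA chondrocytes.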

Other observations

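The rarer cell types add a few values for the same genes. CIA osteoclasts (81 cells) held 69.8 CPM of Vegfa (interval 58.4 to 82.8) and control osteoclasts (20 cells) 123 CPM (95.1 to 156), while the 5 enzymes summed had 7498 and 5349 CPM. Osteoclast Adm stood the other way, with 16.4 CPM (11.1 to 23.3) in CIA and 3.73 CPM from 2 UMIs (0.451 to 13.5) in control cells. In neutrophils (50 CIA and 18 control cells) Vegfa had 15.6 CPM (6.29 to 32.2) in CIA and 70.5 CPM (37.5 to 121) in control cells. Granule-gene progenitors (9 and 17 cells) held 1197 CPM of Eno1 in CIA and 1639 CPM in control cells, the 1 type of these 3 in which the enzymes summed were lower in CIA cells, at 3057 and 4124 CPM. These values rest on few cells: 1 cell held 46.2% of the Vegfa UMIs of control neutrophils and 19.7% of those of control osteoclasts.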
